A study of Homo sapiens with 16 samples.

Results

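The comparison set the reporter-negative sublines of MDA-MB-231 and MDA-MB-436 against each other in standard serum. These 4 of the 16 RNA-seq libraries of the series were chosen by their labels alone, 2 libraries of MDA-MB-231 7TGP-NEG and 2 of MDA-MB-436 7TGP-NEG. Both cell lines are human, established from triple-negative breast cancer, and mesenchymal in type. Each carried 7TGP, an integrated vector in which repeated TCF-binding sites drive eGFP and a further cassette confers puromycin resistance. After puromycin selection, cells without eGFP were sorted and expanded over several rounds, so each 7TGP-NEG subline was a sorted pool and not a clone. All 4 cultures grew for 6 days in 10% FBS and received no drug. According to the study's methods, MDA-MB-231 was kept in DMEM/F-12 and MDA-MB-436 in RPMI-1640, while the sample labels name DMEM for both. Where the media differed, line and medium cannot be told apart. The study describes MDA-MB-231 as carrying a lesion of CDKN2A and MDA-MB-436 as mutated in BRCA1, among other lesions. The 4 reporter-positive libraries in standard serum (7TGP-POS) and the 4 reporter-negative libraries grown for 3 days in 0.5% FBS are given beside them where they bear on a result.

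Triple-negative tumours lack the hormone receptors and amplified ERBB2, and differ widely in the drivers that replace them. An active MAPK cascade induces its own inhibitors, the DUSP phosphatases and the Sprouty proteins. CDKN2A encodes p16, which holds the RB1 protein in its growth-restraining form. Loss of BRCA1 cripples homologous recombination, the error-free repair of double-strand breaks. Wnt signalling acts through beta-catenin and the TCF and LEF factors, whose sites the 7TGP reporter carries.

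Between 31827130 and 39163520 reads were counted per library. The 2 libraries of a line were close to each other, with Pearson's r of 0.999 in either line for log2(CPM + 1) across the 15414 protein-coding genes tested, whereas r between libraries of different lines was 0.831 to 0.832. Genes are not independent replicates, so these r values are descriptions. The median SD of a gene over the pair of libraries was 0.048 on this log2 scale in both lines. Between the lines the median absolute log2 fold change of the edgeR fit was 1.02. That fit does not add 1 to the CPM, so the 2 values are not on the same scale. A gene was called differentially expressed (DEG) where the adjusted p of edgeR's quasi-likelihood test was under 0.05 and the absolute log2 fold change was at least 1. An adjusted p under 0.05 alone was met by 12140 genes (78.8%). By the full rule 7201 genes, 46.7% of those tested, were DEGs, of which 3280 (21.3%) were higher in MDA-MB-231 and 3921 (25.4%) higher in MDA-MB-436. With nearly every other gene a DEG, a gene list has to be read against these shares, and each list count between these 4 libraries is given with the list's median log2 fold change (MDA-MB-231 over MDA-MB-436), which was -0.089 over all genes tested. In 2775 genes the lines differed by at least 3 log2 units, 1114 of them higher in MDA-MB-231 and 1661 higher in MDA-MB-436. An exact permutation test on 2 against 2 libraries cannot fall below p = 0.333, so the p-values rest on the spread shared across 4 groups. They measure the spread between these cultures, and 1 sorted pool of each line was sampled.

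Levels are given as TMM-scaled CPM, the reads of a gene relative to the scaled library total, with the first and second library of each line in turn. A gene was at the floor of a line where both of its libraries held 3 reads or fewer and the other line averaged at least 1 CPM. The fold change is then only a lower bound, set against 3 reads per library, which is 0.0992 CPM in MDA-MB-231 and 0.0802 CPM in MDA-MB-436. For genes without a read these bounds cover counting error only, and for genes with reads they cover less of it. In MDA-MB-231 597 genes (3.87% of those tested) were at the floor, 323 of them without a read in either library, and in MDA-MB-436 264 genes (1.71%) were, 138 of them without a read.

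**Figure D1:**
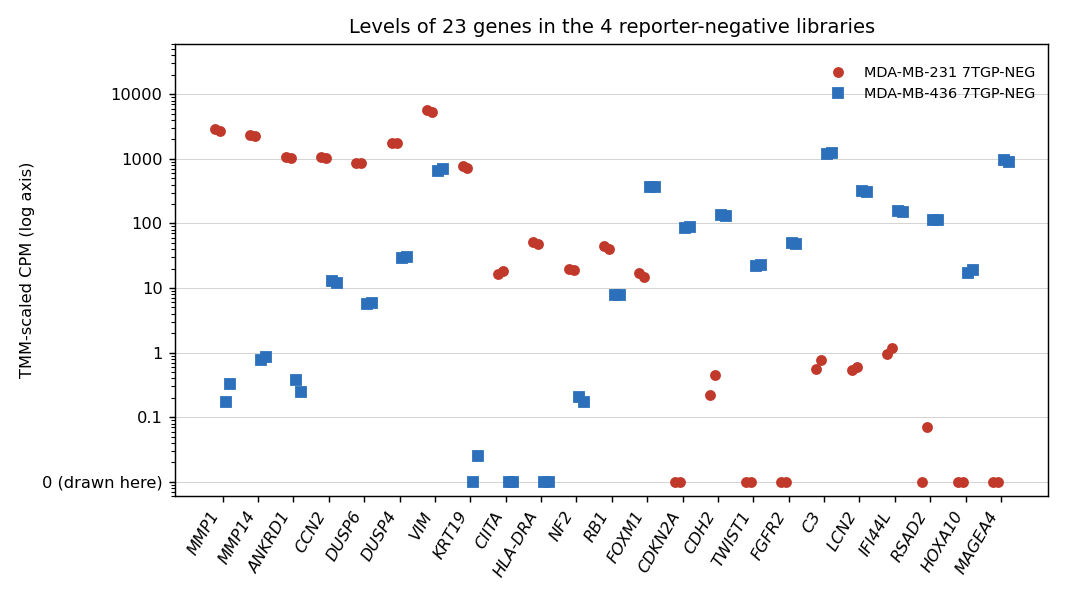
TMM-scaled CPM (log axis) of 23 genes in each of the 4 reporter-negative libraries, circles for MDA-MB-231 7TGP-NEG and squares for MDA-MB-436 7TGP-NEG, with values of 0 drawn at the bottom of the axis. The 2 marks of a line lie close together for nearly all of the genes, while the lines are far apart, from 5.41-fold for RB1 to genes such as MAGEA4 and HLA-DRA that had no read in one of the lines.

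The labels were checked first against markers. ESR1, the oestrogen receptor, had 1 and 0 reads in the MDA-MB-436 libraries and none in MDA-MB-231. PGR, the progesterone receptor, had no read in MDA-MB-231 and 0.261 and 0.347 CPM in MDA-MB-436. ERBB2, the receptor kinase amplified in another breast cancer subtype, stood at 83.5 and 83.2 CPM in MDA-MB-231 and 54.8 and 54.8 CPM in MDA-MB-436, a log2 fold change of 0.60 that was under the DEG threshold. In both lines, then, the hormone receptors of the triple-negative label were absent or nearly so. Of 16 blood and endothelial markers, 8 had enough reads to be tested, with 5 higher in MDA-MB-231 and 2 higher in MDA-MB-436 (median 2.47), and their summed level was 38.6 to 41.6 CPM in MDA-MB-231 and 9.83 to 10.5 CPM in MDA-MB-436. The 7 DEGs of this list were PTPRC, KDR, LYZ, ITGAM, CD14, VWF and CSF1R. CD3E, CD3D and MS4A1 of T and B cells had no read in the 4 libraries. The part of other cells in any result was not tested, and fewer cells of a type cannot be told apart from less RNA per cell in bulk samples.

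Mesenchymal markers differed in level in both directions. Of 29 tested 10 were DEGs higher in MDA-MB-231, 10 were higher in MDA-MB-436 and 9 were not DEGs (median 0.45). VIM, the intermediate filament protein vimentin, was at 5725 and 5316 CPM in MDA-MB-231 and at 650.0 and 695 CPM in MDA-MB-436, an 8.21-fold difference (log2 3.04 ± 0.084 SE, adjusted p = 2.75e-16). FN1 (fibronectin) was 14.3-fold higher in MDA-MB-231, the receptor kinase AXL 24.4-fold, the collagen cross-linking enzyme LOX 56.9-fold and the cadherin CDH11 90.6-fold. CDH2 (N-cadherin) ran the other way, with 0.219 and 0.456 CPM in MDA-MB-231 and 134 and 132 CPM in MDA-MB-436, 397-fold higher in the latter (log2 -8.63 ± 0.16 SE, adjusted p = 9.56e-19). TWIST1, a transcription factor of the epithelial-mesenchymal transition, had no read in MDA-MB-231 and 21.8 and 23.1 CPM in MDA-MB-436, at least 227-fold higher there. Among the related repressors of epithelial genes, ZEB1 (2.03) and SNAI2 (2.88) were higher in MDA-MB-231 and SNAI1 (-3.02) in MDA-MB-436 (log2 fold changes). A difference between the lines sets these genes little apart, since 78.8% of all genes tested had an adjusted p under 0.05 in the edgeR test.

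Epithelial genes were also unevenly kept. CDH1 (E-cadherin) was near zero in both lines, at 0.188 and 0.175 CPM in MDA-MB-231 and 0.087 and 0.0496 CPM in MDA-MB-436, as was GRHL2, a factor that upholds the epithelial state. Of 28 tested epithelial markers 14 were DEGs higher in MDA-MB-231 and 8 higher in MDA-MB-436 (median 1.5). SPINT2, an inhibitor of membrane serine proteases, had 254 and 267 CPM in MDA-MB-231 and 0.551 and 0.595 CPM in MDA-MB-436, a 451-fold difference. CLDN7, a tight-junction claudin, was 237-fold and the laminin chain LAMB3 27.1-fold higher in MDA-MB-231. ELF3, an epithelial transcription factor, was 15.1-fold and GRHL1 12.4-fold higher in MDA-MB-436. The luminal keratin KRT19 stood at 774 and 724 CPM in MDA-MB-231 against 1 read in all in MDA-MB-436, at least 9334-fold higher, and AGR2 and SPDEF, genes of secretory and luminal epithelium, were also at the floor in MDA-MB-436. FOXA1, a luminal pioneer factor, was at the floor in MDA-MB-231 and at 4.47 and 4.12 CPM in MDA-MB-436. In all, 8 of 18 tested luminal markers were higher in MDA-MB-231 and 3 in MDA-MB-436 (median 0.72), and 9 of 18 basal markers were higher in MDA-MB-231 and 5 in MDA-MB-436 (median 1.35). Among the basal ones CAV1, the coat protein of caveolae, was 14.6-fold higher in MDA-MB-231, while MME, the membrane protease CD10, was at the floor there and at 56.5 and 60.6 CPM in MDA-MB-436.

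The genes named as lesions of the lines were examined next. CDKN2A had no read in either MDA-MB-231 library and 83.8 and 87 CPM in MDA-MB-436, at least 861-fold higher. Its neighbours MTAP, an enzyme of methionine salvage, and CDKN2B, which encodes the CDK inhibitor p15, were likewise without a read in MDA-MB-231, and stood at 28.1 and 28.3 CPM and 9.89 and 11.2 CPM in MDA-MB-436. The silent stretch ran over 5 consecutive protein-coding genes, MTAP, CDKN2A, CDKN2B, DMRTA1 and ELAVL2 (GRCh37, chr9:21802635-23826335). Together these had 0 reads in each MDA-MB-231 library and 4431 and 5371 reads in the MDA-MB-436 libraries. The interferon genes next to MTAP are silent in most cells, and beyond and among them HACD4, the interferon gene IFNB1 and KLHL9, which were read in MDA-MB-436, had no read in MDA-MB-231 either. On that side the first gene with reads in MDA-MB-231 was FOCAD (142 and 147 reads), and on the other side it was TUSC1 (175 and 138 reads). None of the 24 annotated protein-coding genes between FOCAD and TUSC1 had a read in MDA-MB-231, while 9 of them had more than 3 reads in a MDA-MB-436 library. The same 5 genes had 0 reads in both MDA-MB-231 7TGP-POS libraries, and 4 to 13 reads in each of the 4 low-serum MDA-MB-231 libraries against 5050 to 5893 in the low-serum MDA-MB-436 libraries.

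**Figure D2:**
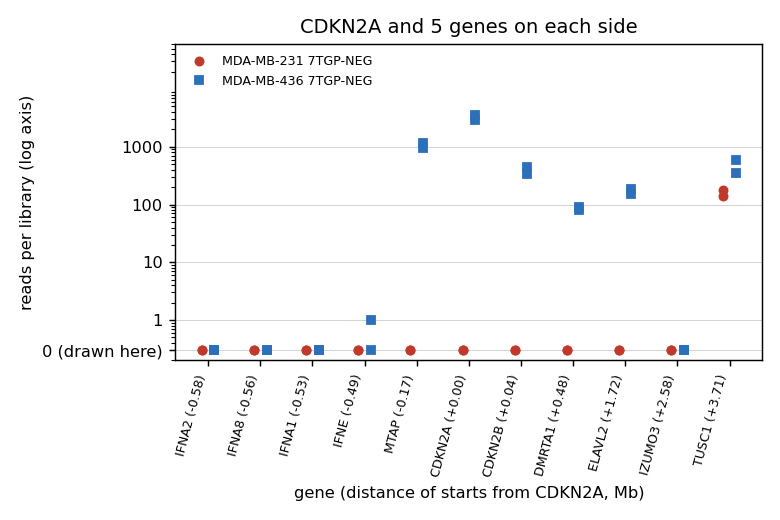
Reads per library (log axis) of CDKN2A with the 5 nearest annotated protein-coding genes on each side, circles for the 2 MDA-MB-231 7TGP-NEG libraries and squares for the 2 MDA-MB-436 7TGP-NEG libraries, with 0 drawn at the bottom and the distance of gene starts in Mb beside each name. From MTAP to ELAVL2 every MDA-MB-231 mark is at 0, and together the 5 genes of this stretch have 4431 and 5371 reads in the MDA-MB-436 libraries.

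RB1, the target of the CDK4 and CDK6 kinases, was 5.41-fold higher in MDA-MB-231, with 44 and 39.8 CPM there and 7.8 and 7.69 CPM in MDA-MB-436 (adjusted p = 1.61e-13). NF2, which encodes merlin, an upstream activator of the Hippo pathway, was at 20 and 18.8 CPM in MDA-MB-231 and 0.203 and 0.174 CPM in MDA-MB-436, 102-fold higher in MDA-MB-231 (adjusted p = 8.62e-16). BRAF (log2 fold change -0.56), NF1 (-0.96) and BRCA1 (-0.63) lay on the MDA-MB-436 side and under the DEG threshold. The 11 lesion genes held 4 DEGs higher in MDA-MB-231 and 3 higher in MDA-MB-436 (median -0.63). Around the G1 checkpoint, the cyclin CCND1 was 7.41-fold, its partner CDK6 9.8-fold and the CDK inhibitor CDKN1A (p21) 5.84-fold higher in MDA-MB-231. The cyclins CCND2 (11-fold) and CCNE1 (15.2-fold) and the transcription factor E2F2 (13.5-fold) were higher in MDA-MB-436.

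Transcripts of mitosis and DNA replication were higher in MDA-MB-436. All 25 G2/M and mitotic genes tested were DEGs in that direction (median -2.06). FOXM1, the transcription factor that drives the G2/M programme, was at 17 and 14.7 CPM in MDA-MB-231 and 367 and 364 CPM in MDA-MB-436, 23-fold higher in the latter (log2 -4.53 ± 0.091 SE, adjusted p = 3.46e-18). The spindle checkpoint kinase BUB1B was 7.09-fold, CDK1 5.43-fold, PLK1 5.19-fold and the proliferation antigen MKI67 4.87-fold higher there. Of 24 DNA replication genes 15 were higher in MDA-MB-436 and 0 in MDA-MB-231 (median -1.21). RRM2, the ribonucleotide reductase subunit that limits dNTP supply, had 17.8 and 19.1 CPM in MDA-MB-231 and 295 and 301 CPM in MDA-MB-436, a 16.2-fold difference, and the replicative helicase subunit MCM4 differed 4.53-fold. PCNA (-0.28), MCM3 (0.17) and MCM7 (0.12) stayed near equality (log2 fold changes). In the 7TGP-POS sublines, where 20.8% of all genes were higher in MDA-MB-231 and 24.6% higher in MDA-MB-436, the counts were 24 of 25 and 19 of 24, all higher in MDA-MB-436. In low serum, where these shares were 20.5% and 21.4%, 5 of the 25 mitotic and 5 of the 24 replication genes were higher in MDA-MB-436, with 0 and 1 higher in MDA-MB-231 (medians -0.60 and -0.48). FOXM1 (-2.42) and RRM2 (-2.4) remained DEGs there (log2 fold changes). Serum, days in culture, library kit and sequencer all changed together between these conditions and cannot be told apart. Growth rate was not measured here.

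Genes of homologous recombination and the DNA damage response followed the same side, with 14 of 26 higher in MDA-MB-436 and 2 higher in MDA-MB-231 (median -1.0). SLFN11, a factor that blocks stressed replication forks, was at 0.219 and 0.245 CPM in MDA-MB-231 and 52.1 and 54 CPM in MDA-MB-436, 226-fold higher (adjusted p = 7.29e-18). POLQ, the polymerase of microhomology-mediated end joining, was at 2.97 and 2.28 CPM in MDA-MB-231 and 33.2 and 36.1 CPM in MDA-MB-436, a 13.1-fold difference. FANCD2 of the Fanconi pathway (4.59-fold) and PARP1 (2.6-fold) were higher in MDA-MB-436 as well. RAD51B, which takes part in homologous recombination, was the opposite, with 6.11 and 6.45 CPM in MDA-MB-231 and no read in MDA-MB-436, at least 78.2-fold higher. The kinase gene ATM was 2.29-fold higher in MDA-MB-231. In the 7TGP-POS sublines RAD51B averaged 7.93 CPM in MDA-MB-231 and 0 CPM in MDA-MB-436.

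Feedback inhibitors and outputs of the RAS-MAPK cascade were higher in MDA-MB-231. Of 20 tested genes 12 were DEGs higher in MDA-MB-231 and 0 higher in MDA-MB-436 (median 1.77). DUSP6, the ERK-specific phosphatase, had 870.5 and 871 CPM in MDA-MB-231 and 5.6 and 5.9 CPM in MDA-MB-436, a 151-fold difference (log2 7.24 ± 0.11 SE, adjusted p = 1.36e-19). DUSP4, a nuclear MAPK phosphatase, was 58.9-fold higher, with 1789.9 and 1748 CPM in MDA-MB-231 and 29.6 and 30.5 CPM in MDA-MB-436. The Sprouty inhibitors SPRY1 (11.3-fold), SPRY2 (10.8-fold) and SPRY4 (4.67-fold), PHLDA1 (8.76-fold) and the ETS factor ETV1 (10.1-fold) were higher in MDA-MB-231 too. DUSP1 (0.23), the immediate-early factor EGR1 (0.085), ETV4 (0.62) and ETV5 (0.81) did not reach the DEG threshold (log2 fold changes). The list gave 12 and 1 DEGs in the 7TGP-POS sublines and 14 and 1 in low serum (higher in MDA-MB-231 and in MDA-MB-436).

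Receptor tyrosine kinases split between the lines. In the EGF receptor family and its ligands 8 of 14 genes were higher in MDA-MB-231 and 2 in MDA-MB-436 (median 1.56). EGFR was 4.99-fold higher, at 716 and 628 CPM in MDA-MB-231 and 131 and 138 CPM in MDA-MB-436. Its ligands AREG (94.7-fold), HBEGF (16-fold) and TGFA (3.4-fold), and the ERBB3 ligand NRG1 (15.1-fold) with ERBB3 itself (11.3-fold), were higher on the same side. Of 29 other receptor kinases 12 were higher in MDA-MB-231 and 13 in MDA-MB-436 (median -0.068). The former held AXL, MERTK (4.98-fold), MET (4.87-fold), EPHA2 (5.25-fold) and KDR (49.9-fold). The latter held 6 kinases at the floor in MDA-MB-231, FGFR2, RET, FLT4, ALK and ROR2 among them. FGFR2 had no read in MDA-MB-231 and 49.6 and 48 CPM in MDA-MB-436, at least 492-fold higher, and FLT4, the receptor of VEGF-C, had 1 read in all against 45.5 and 48.2 CPM. DDR2, a collagen receptor, was 82.2-fold higher in MDA-MB-436, with 2.91 and 2.94 CPM in MDA-MB-231 and 234 and 248 CPM in MDA-MB-436.

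The Hippo effectors YAP and TAZ bind DNA through the TEAD factors. Of 20 of their targets and partners tested 11 were higher in MDA-MB-231 and 1 in MDA-MB-436 (median 1.42). ANKRD1, a nuclear ankyrin-repeat protein and a direct YAP target, was at 1062 and 1018 CPM in MDA-MB-231 and 0.377 and 0.248 CPM in MDA-MB-436, a log2 fold change of 11.7 ± 0.14 (SE, adjusted p = 1.46e-20). The matricellular proteins CCN2 and CCN1 stood at 1055 and 1020.0 CPM and 2337 and 2285 CPM in MDA-MB-231, against 12.9 and 11.8 CPM and 95.7 and 93.6 CPM in MDA-MB-436, 84-fold and 24.4-fold higher. F3 (tissue factor) was 184-fold and the ecto-nucleotidase NT5E (CD73) 53.6-fold higher in MDA-MB-231. The TAZ gene WWTR1 was 3.11-fold higher, YAP1 was at a log2 fold change of 0.61 under the threshold, and the DNA-binding partner TEAD4 was 2.81-fold higher in MDA-MB-436. AMOTL2 (0.06) and LATS2 (0.17), targets that feed back on YAP, did not pass the test. The line difference of CCN2 was smaller in the 7TGP-POS sublines (2.77 against 6.39, interaction adjusted p = 6.92e-14), as was that of ANKRD1 (9.15, interaction adjusted p = 9.92e-08).

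Of 26 genes of the MMPs, their inhibitors and the plasminogen system 14 were higher in MDA-MB-231 and 8 in MDA-MB-436 (median 1.15), and of 29 integrin and laminin genes 17 and 6 were (median 2.04). Other adhesion and matrix lists were more even, with 7 cadherins higher in each line of 23 tested (median 0.25), 10 and 11 of 29 collagens (median 0.20) and 10 and 12 of 32 G protein, calcium and neural adhesion genes (median -0.50). MMP1, the interstitial collagenase, was at 2873 and 2744 CPM in MDA-MB-231 and 0.174 and 0.323 CPM in MDA-MB-436 (log2 13.4 ± 0.16 SE, adjusted p = 1.46e-20). MMP14, a membrane-bound collagenase, was at 2363 and 2242 CPM in MDA-MB-231 and 0.783 and 0.844 CPM in MDA-MB-436 (log2 11.5 ± 0.13 SE). In both genes the MDA-MB-231 libraries were far above the MDA-MB-436 libraries, which stayed below 1 CPM. The plasminogen activators PLAT (246-fold) and PLAU (3.54-fold), the receptor PLAUR (3.91-fold) and the protease inhibitors TIMP3 (156-fold) and TIMP2 (4.55-fold) were higher in MDA-MB-231. MMP2, a gelatinase that MMP14 activates, had no read in MDA-MB-231 and 4.96 and 4.04 CPM in MDA-MB-436. The integrin chains ITGB4 (4.1-fold) and ITGA6 (17.2-fold), which pair as a laminin receptor, and the laminin chains LAMA3 (37.2-fold) and LAMB3 were all higher in MDA-MB-231. LAMA1, a laminin chain of early basement membranes, was 128-fold higher in MDA-MB-436.

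In the TGF-beta, activin and BMP list 16 of 32 genes were higher in MDA-MB-231 and 3 in MDA-MB-436 (median 1.09). The ligands TGFB1 (4.91-fold) and TGFB2 (6.4-fold) and the receptor TGFBR2 (20.8-fold, at 760.5 and 723 CPM in MDA-MB-231 and 35.8 and 35.5 CPM in MDA-MB-436) were higher in MDA-MB-231. BMP4 was 80.5-fold higher in MDA-MB-231, together with NOG (204-fold), an extracellular BMP antagonist. BMP7 had no read in MDA-MB-231 and 30.5 and 32.4 CPM in MDA-MB-436, at least 317-fold higher.

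Genes of Wnt signalling are given because the sublines were sorted on a Wnt reporter, here for its absence. Of 29 ligand and receptor genes 10 were higher in MDA-MB-231 and 11 in MDA-MB-436 (median 0.18). WNT5A, a ligand known chiefly for beta-catenin-independent signalling, was at 0.626 and 0.491 CPM in MDA-MB-231 and 19 and 19 CPM in MDA-MB-436, 33.6-fold higher in the latter. The co-receptor LRP5 was 7.3-fold, the receptor FZD8 9.62-fold and the ligand WNT7B 4.38-fold higher in MDA-MB-231. Of 16 antagonists and R-spondin pathway genes 4 were higher in MDA-MB-231 and 9 in MDA-MB-436 (median -2.59). DKK1, a secreted blocker of the LRP co-receptors, was at 603 and 607 CPM in MDA-MB-231 and 15.8 and 14 CPM in MDA-MB-436, 40.7-fold higher in the former (adjusted p = 4.59e-19). Its co-receptors KREMEN1 (11-fold) and KREMEN2 (8.02-fold) and the antagonist SFRP1 (18.6-fold) were higher in MDA-MB-436. Among 19 genes known as canonical targets 8 were higher in MDA-MB-231 and 6 in MDA-MB-436 (median 0.96). RNF43, a ubiquitin ligase that removes Frizzled receptors, was 15.5-fold higher in MDA-MB-231 and TCF7 5.65-fold higher in MDA-MB-436, with TBX3, a T-box repressor, at the floor in MDA-MB-231.

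MHC class II molecules, which present peptides to helper T cells, were transcribed in MDA-MB-231, with almost no reads in MDA-MB-436. All 10 genes tested were DEGs higher in MDA-MB-231 (median 7.94 with genes at the floor set at their bound), and 7 of them were at the floor in MDA-MB-436. CIITA, the transactivator on which class II expression depends, was at 16.7 and 18.5 CPM in MDA-MB-231 and had no read in MDA-MB-436, at least 219.5-fold higher. HLA-DRA, the nearly invariant alpha chain of HLA-DR, was at 52.2 and 47.6 CPM in MDA-MB-231 and had no read in MDA-MB-436, at least 622-fold higher. CD74, the chain that escorts class II molecules, was at 775 and 765 CPM against 0.116 and 0.298 CPM (log2 11.8 ± 0.17 SE). The 10 genes were DEGs in this direction in the 7TGP-POS sublines and in low serum too. In 7TGP-POS, CIITA averaged 26.9 CPM in MDA-MB-231 and 0.432 CPM in MDA-MB-436, and HLA-DRA 60.8 and 0.302 CPM. HLA genes vary between people and were counted against one reference sequence, which can lose reads in either line, so absence of reads was not taken as absence of the genes for HLA-DRB1 and HLA-DRB5.

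Interferon-stimulated genes were mostly higher in MDA-MB-436. Type I interferons act through STAT factors and IRF9, which bind the interferon-stimulated response element in the promoters of their targets, a motif whose core is GAAA, any pair of bases, and GAAA again. Of 40 tested genes 26 were higher in MDA-MB-436 and 6 in MDA-MB-231 (median -1.74). RSAD2, the antiviral enzyme viperin, had 0 and 2 reads in MDA-MB-231 and 115 and 111 CPM in MDA-MB-436, at least 1141-fold higher. IFI44L, an interferon-induced intracellular protein, was at 0.939 and 1.19 CPM in MDA-MB-231 and 154 and 149 CPM in MDA-MB-436, 143-fold higher (log2 -7.16 ± 0.15 SE, adjusted p = 2.46e-17). IFI6 (24-fold), OASL (23.6-fold), the RNA sensor IFIH1 (9.16-fold) and IFIT1 (5.03-fold) were also higher in MDA-MB-436. The interferon genes IFNB1 and IFNL1 had no read in MDA-MB-231, and were at 1.13 and 1.02 CPM and 2.96 and 2.83 CPM in MDA-MB-436, and IFNB1 lies within the stretch around CDKN2A that had no read in MDA-MB-231. Against the trend, IFITM1 was at 47.9 and 51.9 CPM in MDA-MB-231 and 2.18 and 1.98 CPM in MDA-MB-436, 24-fold higher in MDA-MB-231, and IFITM2 was 156-fold higher there. IFITM1, IFITM2 and IFITM3 are membrane proteins that hinder viral entry, and since their sequences are alike, reads could be split between them. The binding protein LGALS3BP (8.97-fold) and OAS2 (4.56-fold) were higher in MDA-MB-231.

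The promoters of 4 of these genes are shown to set genes of both directions side by side, 3 higher in MDA-MB-436 and 1 higher in MDA-MB-231. They are the 250 bases before the RefSeq gene start (GRCh38.p14), written 5′ to 3′ on the strand of the gene, with capitals marking each match to that core or to its reverse complement (TTTC, any pair of bases, TTTC). The windows are chr1:78620198-78620447 (plus strand) for IFI44L, chr1:27672193-27672442 (minus strand) for IFI6, chr10:89392373-89392622 (plus strand) for IFIT1 and chr11:313790-314039 (plus strand) for IFITM1.
IFI44L: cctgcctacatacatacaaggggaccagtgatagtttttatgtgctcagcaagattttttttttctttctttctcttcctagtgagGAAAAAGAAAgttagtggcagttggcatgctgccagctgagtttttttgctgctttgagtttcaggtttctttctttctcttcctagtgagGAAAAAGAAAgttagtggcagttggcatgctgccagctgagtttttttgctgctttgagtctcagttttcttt
IFI6: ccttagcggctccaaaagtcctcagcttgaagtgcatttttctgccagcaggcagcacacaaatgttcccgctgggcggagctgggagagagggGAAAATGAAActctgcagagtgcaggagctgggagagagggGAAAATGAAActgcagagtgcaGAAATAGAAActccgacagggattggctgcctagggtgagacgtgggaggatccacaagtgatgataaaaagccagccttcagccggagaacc
IFIT1: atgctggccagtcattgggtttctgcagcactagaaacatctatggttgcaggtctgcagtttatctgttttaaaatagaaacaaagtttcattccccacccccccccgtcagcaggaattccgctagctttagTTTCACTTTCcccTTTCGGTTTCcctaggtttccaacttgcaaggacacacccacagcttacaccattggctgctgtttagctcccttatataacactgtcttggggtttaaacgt
IFITM1: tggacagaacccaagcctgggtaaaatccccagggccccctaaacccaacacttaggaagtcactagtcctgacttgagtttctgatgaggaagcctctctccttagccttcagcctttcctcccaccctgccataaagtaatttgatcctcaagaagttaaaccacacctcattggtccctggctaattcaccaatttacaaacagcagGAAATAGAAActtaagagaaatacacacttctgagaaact

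The first matches began 164 bases before the start in IFI44L, 156 in IFI6, 116 in IFIT1 and 40 in IFITM1. RefSeq promoters could be matched for 32 of the 40 interferon-stimulated genes (80.0%), and 20 of the 32 (62.5%) held the motif on either strand, against 306 of 12293 promoters of tested genes (2.49%). It was in 12 of 20 promoters of genes higher in MDA-MB-436 (60%) and in 8 of 12 promoters of the others (66.7%), where 76.9% of the former and 85.7% of the latter genes had a promoter, so the split is not read further. A match is a description of the letters and shows no binding.

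The interferon difference was narrower in the reporter-positive sublines. In the 7TGP-POS sublines the same list had 13 genes higher in MDA-MB-231 and 10 higher in MDA-MB-436 (median -0.11). The line difference itself differed between 7TGP-NEG and 7TGP-POS for 29 of the 40 genes (interaction DEGs, 13.8% of all genes tested), 28 of them with a lower value in 7TGP-NEG (7.02% of all genes) and 1 with a higher value (6.81%). IFI44L had a log2 fold change of -7.16 in 7TGP-NEG and of -1.09 in 7TGP-POS (interaction adjusted p = 6.57e-13), for IFI6 -4.59 and -0.49 (1.98e-13), and for OAS1, which makes the activator of RNase L, -3.0 and 1.72 (7.51e-11). In low serum 24 genes were higher in MDA-MB-436 and 8 in MDA-MB-231 (median -1.39). RSAD2 kept its direction in all 3 comparisons.

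NF-kB drives cytokine and chemokine genes of inflammation. Of 24 NF-kB target genes 10 were higher in MDA-MB-436 and 2 in MDA-MB-231 (median -0.81), and in the 7TGP-POS sublines these counts were 7 and 8. CCL2, the monocyte chemokine, was at 0.0626 and 0.14 CPM in MDA-MB-231 and 33.6 and 29.1 CPM in MDA-MB-436, 305-fold higher. IL6 (12-fold), IL1A (11.9-fold), IL1B (9.38-fold) and TNFAIP3 (11.6-fold), an inhibitor of NF-kB, were higher in MDA-MB-436. CSF2, which encodes GM-CSF, was at 38.1 and 40.4 CPM in MDA-MB-231 and 0.261 and 0.198 CPM in MDA-MB-436, 170.0-fold higher in MDA-MB-231. CXCL8 (0.88) and NFKBIA (-0.21) did not reach the threshold (log2 fold changes). Of 18 genes of nucleic acid sensing 9 were higher in MDA-MB-436 and 3 in MDA-MB-231 (median -0.99), with AIM2 and IFI16, sensors of DNA, on the MDA-MB-231 side. In the 7TGP-POS sublines 4 were higher in MDA-MB-436 and 5 in MDA-MB-231 (median -0.028). Of the 18 genes 7 were interaction DEGs (13.8% of all genes).

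**Figure D3:**
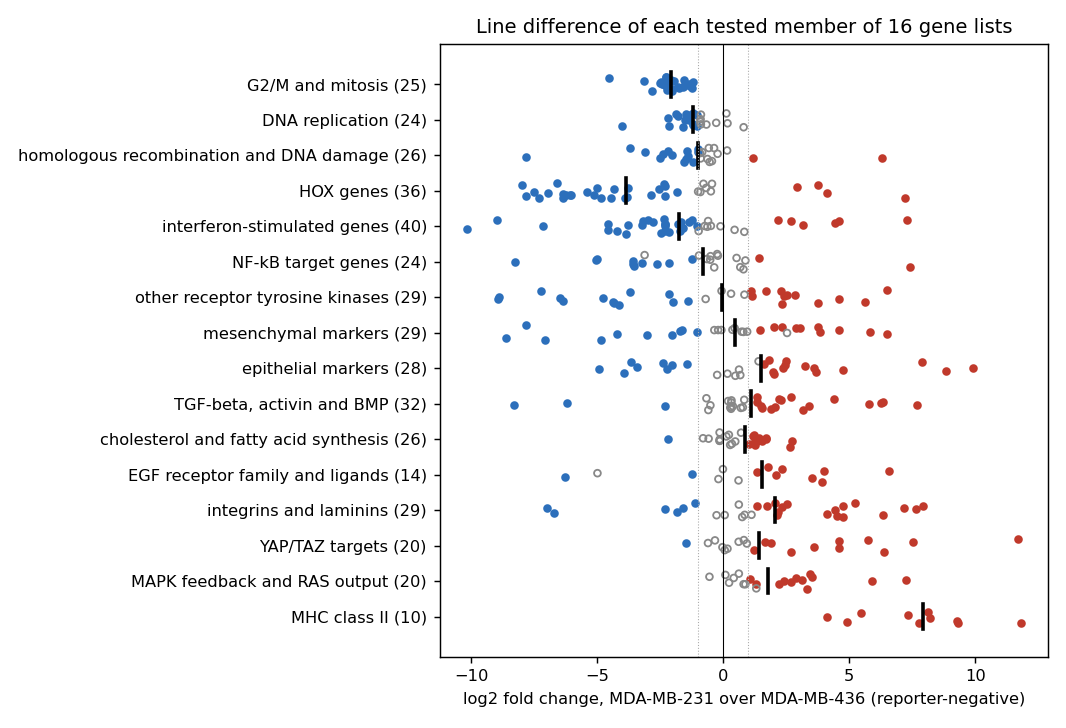
Log2 fold change (MDA-MB-231 over MDA-MB-436, reporter-negative) of every tested member of 16 gene lists, with the number tested in brackets; filled points are DEGs, open points are not, black bars are medians, dotted lines mark log2 fold changes of -1 and 1, and genes at the floor are drawn at their lower bound. All 25 G2/M genes lie left of the line at 0 and all 10 MHC class II genes right of it, while the mesenchymal markers spread over both sides with 10 DEGs each.

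Some developmental and germline genes gave further all-or-none differences. Of 36 tested HOX genes, which encode the factors of positional identity, 26 were higher in MDA-MB-436 and 4 in MDA-MB-231 (median -3.86 with genes at the floor set at their bound), and 11 were at the floor in MDA-MB-231. HOXA10 had no read in MDA-MB-231 and 16.9 and 19.1 CPM in MDA-MB-436, at least 181-fold higher, and HOXA3, HOXA4, HOXA5 and HOXA11 were likewise without a read. HOXB9 was the other way, at 82.3 and 80.6 CPM in MDA-MB-231 and 10.6 and 10.7 CPM in MDA-MB-436, 7.65-fold higher. Of 41 cancer-testis antigens 20 had enough reads to be tested, and each line was higher in 6 (median 0.53). MAGEA4 had no read in MDA-MB-231 and 969.9 and 893 CPM in MDA-MB-436, at least 9386-fold higher, and PRAME, a repressor of retinoic acid signalling, at least 1681-fold higher. MAGEC1 was at 21.7 and 21.5 CPM in MDA-MB-231 with 1 read in MDA-MB-436. Members of the MAGE family share sequence, so their reads could be split or lost.

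Among genes with at least 10 reads in all 4 libraries, the widest differences towards MDA-MB-436 included the complement genes C3, C1S and C1R. C3, the central complement component, was at 0.564 and 0.771 CPM in MDA-MB-231 and 1207 and 1223 CPM in MDA-MB-436 (log2 -10.8 ± 0.13 SE, adjusted p = 1.46e-20). LCN2, an iron-carrier-binding lipocalin, was at 0.532 and 0.596 CPM and 319 and 304 CPM in the same order (log2 -9.11). SLC16A1, the lactate transporter MCT1, was 238-fold, the prolactin receptor PRLR 231-fold and the creatine transporter SLC6A8 136-fold higher in MDA-MB-436. Towards MDA-MB-231 they included ANKRD1 and MMP14, SLC37A2 (885-fold), the caveolar protein EHD2 (381-fold), the cytokine IL11 (212-fold) and IGFBP4 (205-fold), which binds insulin-like growth factors. Of these, FKBP9 was at 207 and 203 CPM in MDA-MB-231 and 0.551 and 1.02 CPM in MDA-MB-436, with a smaller difference in 7TGP-POS (7.99 against 3.77, interaction adjusted p = 3.81e-11).

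On the per-length scale of the deposited TPM, the most abundant transcripts at the floor of the other line were S100A9 and MAGEA4 in MDA-MB-436 and the salivary cystatins CST1 and CST4 in MDA-MB-231. S100A9, a calcium-binding alarmin, averaged 3668 TPM in MDA-MB-436 and had 0 and 1 read in MDA-MB-231. UCHL1, a deubiquitinase of neurons, averaged 1043 TPM in MDA-MB-436 with no read in MDA-MB-231. CST1 averaged 10691 TPM in MDA-MB-231 and had no read in MDA-MB-436. The cystatins CST1, CST2 and CST4 are close relatives and could share reads. The ferritin heavy chain FTH1 was 11.7-fold higher in MDA-MB-436 and the chromatin protein HMGA1 13.8-fold higher in MDA-MB-231.

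Of 26 genes of cholesterol and fatty acid synthesis 13 were higher in MDA-MB-231 and 1 in MDA-MB-436 (median 0.86). MSMO1, a sterol oxidase, was at 442 and 443 CPM in MDA-MB-231 and 73 and 68.9 CPM in MDA-MB-436, 6.24-fold higher. SQLE, squalene epoxidase, was the exception at 55.2 and 51.8 CPM and 240.1 and 252 CPM, 4.6-fold higher in MDA-MB-436. The 7TGP-POS sublines had the same counts of 13 and 1, while in low serum 1 was higher in MDA-MB-231 and 7 in MDA-MB-436, where MSMO1 stood at a log2 fold change of -0.073. Among genes of drug handling 7 of 27 were higher in MDA-MB-231 and 13 in MDA-MB-436 (median -0.62). In the 7TGP-POS sublines these counts were 8 and 10 (median 0.13), and 13 of the 27 were interaction DEGs (13.8% of all genes). NQO1, a quinone reductase, was 7.7-fold and the glutathione transferase GSTP1 4.02-fold higher in MDA-MB-436, and the nucleoside transporter SLC29A1 was 7.0-fold higher in MDA-MB-231. GSTT1 had no read in MDA-MB-231 and GSTM1 had at most 2 reads per library in MDA-MB-436, genes that are commonly deleted in the human population.

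Genes at the floor lay in part next to each other. There were 73 runs of at least 2 consecutive annotated protein-coding genes at the floor of the same line, 50 in MDA-MB-231 and 23 in MDA-MB-436, holding 168 genes. Of these 16 had at least 3 genes and 2 had 5. The longest in MDA-MB-231 was that of CDKN2A. The longest in MDA-MB-436 held the zinc finger genes ZNF682, ZNF90, ZNF486, ZNF737 and ZNF626 (GRCh37, chr19:20107867-20844402), with 4 reads over both MDA-MB-436 libraries and between 1.35 and 11.5 CPM per gene in MDA-MB-231. That run was not empty in MDA-MB-436 7TGP-POS, which had 56 reads. Of the 597 genes at the floor in MDA-MB-231 492 were at or under it in MDA-MB-231 7TGP-POS and 326 in low serum, and of the 264 in MDA-MB-436 148 and 186 were. The cutoff was 3 reads per library throughout, while the study's methods give another kit and more clusters per sample for low serum. The low-serum counts are therefore not on the same scale as the 7TGP-POS counts.

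Across the chromosomes the median log2 fold change, over the 12523 genes that averaged 1 CPM or more, ran from -0.84 on X to 0.57 on 6. On X 192 of 426 genes were higher in MDA-MB-436 and 43 in MDA-MB-231, and on 6 239 of 627 were higher in MDA-MB-231 and 110 in MDA-MB-436. In low serum the medians of X and 6 were -0.81 and 0.49, but in the 7TGP-POS sublines they were -0.41 and 0.26. The extremes in 7TGP-POS were other chromosomes, 9 at -0.82 and 17 at 0.48. In 241 windows of 50 neighbouring genes, 10 had a median of at least 1 and 11 of -1 or less. The lowest lay on the short arm of chromosome 5, with gene starts from 92283 to 31639238 (GRCh37, PLEKHG4B to PDZD2), where the median was -1.80 and 38 of 50 genes were higher in MDA-MB-436 and 3 in MDA-MB-231. Its median was -2.04 in low serum but -0.24 in the 7TGP-POS sublines, and 41 of the 50 genes were interaction DEGs with the lower value in 7TGP-NEG. Within MDA-MB-436 the median of 7TGP-NEG minus 7TGP-POS in this window was 1.30, and within MDA-MB-231 it was -0.24. The next window on chromosome 5 (GOLPH3 to ITGA1) had -1.24, and -0.51 in 7TGP-POS. Windows on the short arm of chromosome 12 had -1.63 and -1.41, and -0.94 and -0.72 in 7TGP-POS. The highest window lay on chromosome 6, with gene starts from 33286335 to 38643701 (DAXX to GLO1), where the median was 1.61 with 32 of 50 genes higher in MDA-MB-231, and 1.41 in 7TGP-POS. DNA copy number was not measured in these files, and its part in the windows was not tested.

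**Figure D4:**
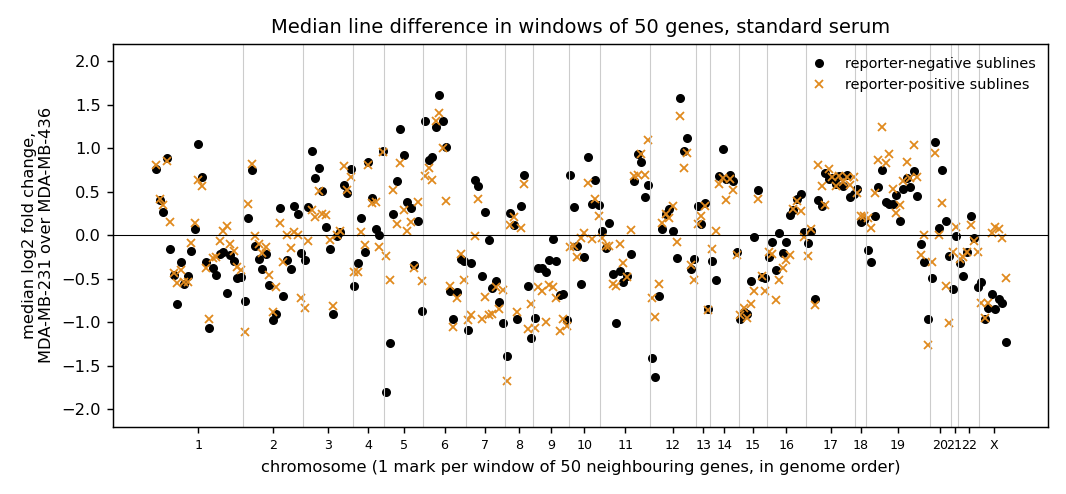
Median log2 fold change (MDA-MB-231 over MDA-MB-436) in 241 windows of 50 neighbouring genes in genome order, dots for the reporter-negative and crosses for the reporter-positive sublines in standard serum. The first window of chromosome 5 is the lowest dot at -1.80 and its cross is at -0.24, while the highest dot, on chromosome 6 at 1.61, has its cross at 1.41.

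The line difference was next set beside that of the reporter-positive sublines, which share no library with it. Their comparison gave 6993 DEGs (45.4%), 3204 higher in MDA-MB-231 (20.8%) and 3789 in MDA-MB-436 (24.6%). Of the DEGs of either comparison 5311 moved the same way in both, which is 73.8% of the 7TGP-NEG and 75.9% of the 7TGP-POS DEGs. Across genes the log2 fold changes had r = 0.873, a description, since the 4 groups share a fit and genes share libraries. The difference of the line differences was an interaction DEG in 2132 genes (13.8%), among them 1478 of the 7TGP-NEG DEGs. In 85 genes the lines were DEGs of opposite direction, 32 of them higher in MDA-MB-231 among 7TGP-NEG and 53 higher in MDA-MB-436. In low serum, 6732 of 16069 genes were DEGs between the 7TGP-NEG sublines (41.9%), and 5389 moved as in standard serum, 74.8% of the standard-serum and 80.1% of the low-serum DEGs, with 26 opposite. In all 3 comparisons 4278 genes were DEGs of one direction, 1958 higher in MDA-MB-231 and 2320 higher in MDA-MB-436, which is 59.4% of the 7201.

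**Figure D5:**
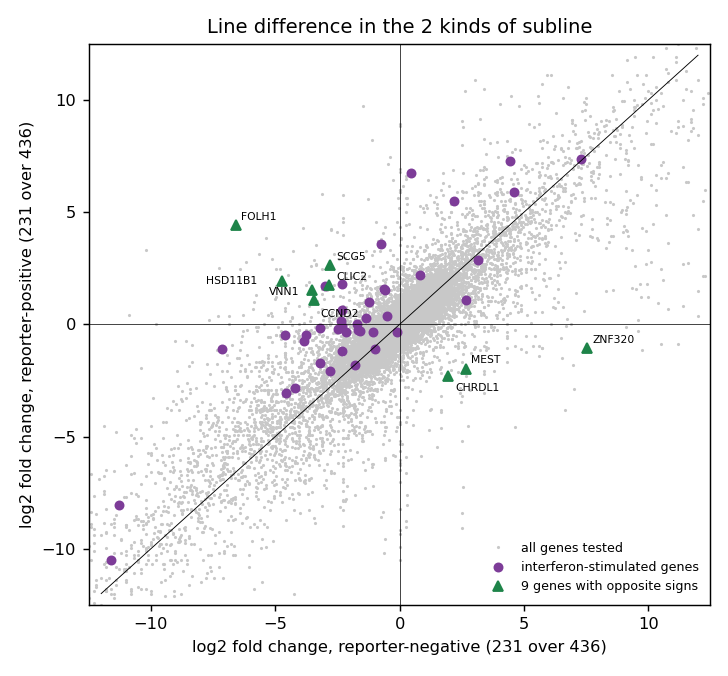
Log2 fold change (MDA-MB-231 over MDA-MB-436) of each tested gene in the reporter-negative (horizontal) and the reporter-positive (vertical) sublines in standard serum, grey for all genes, purple circles for interferon-stimulated genes and green triangles for 9 named genes of opposite sign; the diagonal marks equality and 124 genes lie beyond the axes. Most grey points follow the diagonal (r = 0.873), while many purple circles lie left of it, with IFI44L at -7.16 and -1.09.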

How the data were processed

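The authors aligned and counted reads with STAR on hg19 with Gencode v19 (submitters' notes: STAR 2.6.1a, edgeR 3.22.5, limma) and deposited a table of raw counts per gene and one of TPM, whose making is not given in the sources used here, for the standard-serum and the low-serum libraries. Standard-serum libraries were made from polyadenylated RNA, and low-serum ones after rRNA depletion by another kit and on another sequencer, although the labels name 1 kit for all. The labels give 2 biological replicates per group, with 1 table column each, and 0 per-sample columns were left unused.

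Counts were tested with edgeR 4.0.16 (quasi-likelihood, robust, TMM factors, R 4.3.3) on protein-coding genes with at least 10 counts over the 8 libraries of a serum condition, with 4 group means and 1 shared spread (4 residual degrees of freedom). P-values were adjusted by the Benjamini-Hochberg method over all genes tested. Low serum was fitted apart, since serum, days, kit and sequencer cannot be told apart. CPM were computed from the counts and TMM factors, and the deposited TPM were used for levels per length only. Gene names, coordinates and biotypes came from the Gencode v44 annotation lifted to GRCh37, and 2282 IDs holding 0.855% of counts had no match and stayed out. The 4 libraries held between 0.73 and 1.52% mitochondrial reads. Only uniquely assigned reads count, so near-identical genes are uncertain. Promoters are from RefSeq (GRCh38.p14), matched for 79.8% of tested genes. A check of promoter CpG content was void, as 70.7% and 75.4% of the genes at the floor had a promoter, under 80%. The fit was tested on simulated data.

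The members and gene lists were chosen with earlier results of these data known. The text names lesion genes and hormone receptors, at most 8 DEGs per list by adjusted p, the 15 widest differences per direction, the 15 genes at the floor and 10 DEGs with the highest TPM per line, genes of runs and neighbourhoods, and 10 genes of opposite direction. Some genes that the rule names are not reported here. Other list members and genes given with their values were chosen after their values were seen. Alternatives were other normalizations, filters, tests (DESeq2 1.42.0, limma 3.58.1), libraries left out and a replicate block.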

Additional observations from a re-analysis of the deposited data

Results flagged for a closer look

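In 85 genes the lines were DEGs of opposite direction in the reporter-negative and the reporter-positive sublines, and 9 of them are given here. The difference between the 2 line differences is the interaction in the edgeR fit (7TGP-NEG minus 7TGP-POS). All 85 genes had an interaction adjusted p under 0.05, so passing that test does not set the 9 apart. The 9 were chosen with their results known, and their adjusted p-values are descriptions. The interaction values are on the log2 scale. CCND2, a G1 cyclin, stood at -3.46 in 7TGP-NEG and 1.07 in 7TGP-POS, an interaction of -4.53 ± 0.13 (SE, adjusted p = 3.54e-14). ZNF320, a zinc finger gene, was at 7.52 and -1.07 (8.58), with 27.4 and 27.8 CPM in MDA-MB-231 7TGP-NEG and 0.087 and 0.198 CPM in MDA-MB-436 7TGP-NEG, against means of 18.2 and 38 CPM in 7TGP-POS. MEST, an imprinted gene, was at 2.65 and -1.98 (4.63), and CHRDL1, a BMP antagonist, at 1.96 and -2.32 (4.28).

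HSD11B1, which regenerates active glucocorticoid, was at -4.72 and 1.94 (-6.65). CLIC2 was at -2.82 and 1.74 (-4.56), VNN1, a pantetheinase, at -3.51 and 1.55 (-5.06), and SCG5 at -2.78 and 2.63 (-5.4). FOLH1, which encodes the membrane antigen PSMA, was at the floor in MDA-MB-231 7TGP-NEG and at 2.15 and 1.71 CPM in MDA-MB-436 7TGP-NEG, with means of 10.1 CPM in MDA-MB-231 7TGP-POS and 0.471 CPM in MDA-MB-436 7TGP-POS, and its fitted interaction of -11.0 rests on the prior count. In low serum the 7TGP-NEG line difference was -1.65 for CCND2 and 6.25 for ZNF320. Each subline was 1 sorted pool, so the sort and other differences between the pools cannot be told apart.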

How the results depend on the processing

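The count of DEGs stayed within 1.5 times the main count under every alternative that kept both thresholds, in total and higher in MDA-MB-436. DESeq2 gave 6773 DEGs. With the replicate number as a block there were 7171, of which 7144 were shared, and the replicate numbers did not pair the samples (correlations of deviations between 0.0114 and 0.112). Leaving out 1 of the 4 libraries at a time gave 6909 to 7042 DEGs, 3149 to 3232 higher in MDA-MB-231 and 3731 to 3869 higher in MDA-MB-436, with 601 to 664 and 262 to 305 genes at the floor in the 2 lines and a median of all genes between -0.0922 and -0.0775. The median was -0.182 with upper-quartile factors, -0.30 with library totals and -0.225 with limma on log2(TPM + 0.1), shifts of -0.0935, -0.212 and -0.136 from the main value, so small fold changes depend on the scaling. On log2(TPM + 1), 2160 genes were higher in MDA-MB-231 (the cause was not tested). With adjusted p alone 12140 genes passed, 5757 higher in MDA-MB-231 and 6383 in MDA-MB-436. The floor counts were 323 and 138 at 0 reads, and 1276 and 658 where the other line needed 0.1 CPM. Windows of 25 genes had extremes of 1.86 and -2.59. Of 561 DEGs among the genes eligible to be named, 516 kept their call in every alternative that tested them and 45 lost it in at least 1, and 0 reversed. For genes without a read in a line, depth limits the fold change to a lower bound.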
